A study of Homo sapiens with 12 samples.

Results

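The large ribosomal subunit protein genes were followed in TIGK cells with and without L-arginine (Arg). TIGK cells are keratinocytes of the human gum that were immortalized by telomerase expression. The genes were taken as every protein-coding row of the count table whose symbol is RPL followed by P0, P1, or P2 or by a number, with the endings A, L, AL, or L1 of related copies. This gave 53 genes of 58735 rows, and 52 of them had a count in at least 1 of the 12 libraries. RPL10L, a copy of RPL10 known from testis, was at 0 in every library, so 52 genes were tested. All 52 passed the filter on low counts in each comparison.

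All 4 groups were cultured at 48 mM glucose in a base medium that contained no Arg. The Arg groups received 500 μM Arg for 24 or 48 h, and the untreated control groups received none for the same times. Each group had 3 libraries of poly(A) RNA, replicates A, B, and C. The sources do not say that the replicates came from separate cultures, so p-values measure only the spread between these libraries. The line is a single immortalized line, which limits it as a model of gingival epithelium.

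The libraries held between 16542243 and 19040964 counts. All 10 keratinocyte markers reached 1 CPM (a gene's count relative to its library's total, here adjusted by TMM factors), and their summed level lay between 44184 and 56281 CPM. The summed immune markers lay between 0 and 0.449 CPM and the melanocyte markers between 1.03 and 3.05 CPM, with the pigment enzyme TYR at 0. The endothelial markers lay between 0.162 and 2.13 CPM. The fibroblast markers lay between 29.6 and 102 CPM, and 3 of 6 reached 1 CPM. The share of mitochondrially encoded genes was 1.55% in control replicate B at 48 h, against 0.906% and 0.707% in the other two libraries of that group.

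Background on these genes is brief. The large subunit holds the site where amino acids are joined and the tunnel through which the new chain leaves, and most of its proteins are needed in equal number. Many ribosomal protein mRNAs begin with a C followed by a run of pyrimidines, the 5′ terminal oligopyrimidine (TOP) motif, through which nutrient signaling by mTOR and the RNA-binding protein LARP1 controls their translation and stability. Amino acids such as Arg are among the inputs to mTOR. RNA levels alone were measured here, and translation was not.

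The start sites are shown first, because the TOP motif is the feature that most of these genes share outside their names. RefSeq promoters (GRCh38.p14) were matched by symbol for 43 of the 53 genes. Among those not matched were RPL23, RPL23A, RPL30, RPL37, RPL39L, RPL3L, RPL5, RPL7, and RPL8. Each window below runs on the gene's strand, with 15 bases before the annotated start and 15 from it onward. Capitals mark the run that begins with a C at the start and continues with at least 4 pyrimidines (C or T). The genes were picked for the results that follow, namely genes with small p-values, a stalk protein, pairs of close relatives, and exceptions.
RPL37A: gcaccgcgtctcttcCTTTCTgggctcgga
RPL22L1: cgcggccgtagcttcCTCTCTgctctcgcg
RPL22: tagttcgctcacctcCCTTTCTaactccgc
RPL18: accccagcccgttctCTCTTTCCggacctg
RPLP0: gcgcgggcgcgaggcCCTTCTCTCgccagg
RPL26: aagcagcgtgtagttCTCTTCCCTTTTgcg
RPL36A: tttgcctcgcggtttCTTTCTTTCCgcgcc
RPL9: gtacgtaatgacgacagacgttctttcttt
RPL26L1: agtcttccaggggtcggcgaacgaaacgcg
RPL36AL: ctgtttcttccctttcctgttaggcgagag
RPL17: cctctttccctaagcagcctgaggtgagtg
These windows lie at chr2:216498829-216498858 on the plus strand for RPL37A, chr3:170870181-170870210 on the minus strand for RPL22L1, and chr1:6199581-6199610 on the minus strand for RPL22. Those of RPL18 and RPLP0 lie on the minus strand at chr19:48619164-48619193 and chr12:120201097-120201126. RPL26 is at chr17:8383179-8383208 on the minus strand and RPL36A at chrX:101390996-101391025 on the plus strand. The windows without the run lie at chr4:39458908-39458937 (RPL9, minus), chr5:172958714-172958743 (RPL26L1, plus), chr14:49620612-49620641 (RPL36AL, minus), and chr18:49492451-49492480 (RPL17, minus).

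The run stood at an annotated start of 29 of the 43 matched genes, or 67.4%. The same search found it in 18 of 25 small subunit genes and in 1404 of 27305 symbols with a RefSeq promoter, or 5.14%. Only the annotated start base itself was searched, on the gene's strand, and no overlap with other motifs was considered. In RPL9, a pyrimidine run can be seen a few bases after the annotated start, and in RPL36AL just before it. RPL26 and RPL36A carry the run while their close relatives RPL26L1 and RPL36AL do not. RPL22 and RPL22L1 both carry it. A match is a description of an annotated start, and no start sites were measured in these cells.

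The 52 genes together took a smaller share of the counts in Arg-treated cells than in control cells at both times. At 24 h, they took 5.20%, 4.75%, and 5.16% of the counts in control replicates A, B, and C, and 4.64%, 4.42%, and 4.62% in the Arg replicates. At 48 h, the shares were 5.01%, 4.70%, and 4.87% in the control and 4.52%, 4.36%, and 4.15% with Arg. At each time, every Arg library was below every control library. The means were 5.04% ± 0.248 and 4.56% ± 0.121 at 24 h, and 4.86% ± 0.153 and 4.35% ± 0.184 at 48 h (SD, n = 3). The 32 small subunit genes had the same order, with means of 2.94%, 2.57%, 2.77%, and 2.39% in the 24 h control, 24 h Arg, 48 h control, and 48 h Arg groups. These are relative levels in bulk RNA, where fewer cells of a type and less RNA per cell cannot be told apart.

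**Figure D1:**
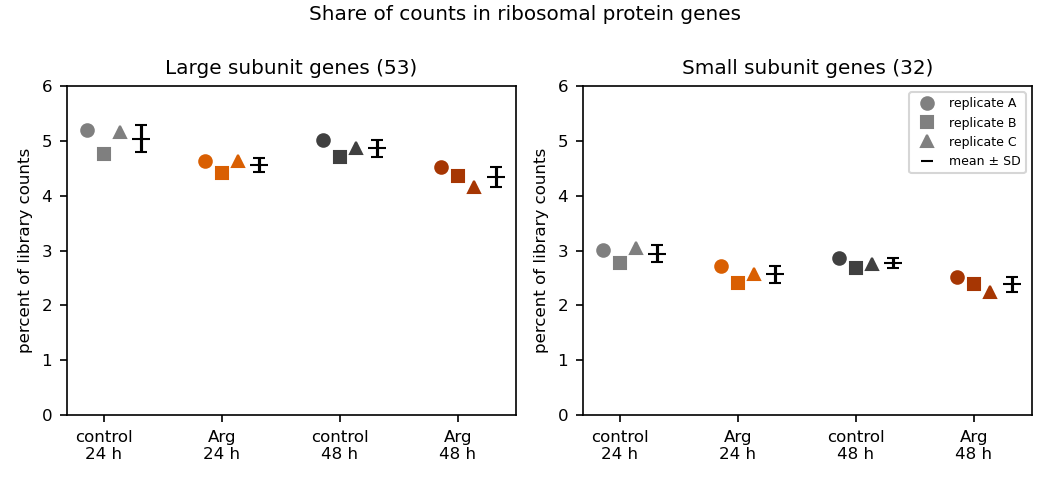
Percent of each library's counts in large subunit genes (left) and small subunit genes (right), by group, with 1 point per library and the mean ± SD beside it. In the left plot, the Arg libraries lie between 4.42% and 4.64% at 24 h and between 4.15% and 4.52% at 48 h, below every control library of the same time.

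The genes differed widely in level. Divided by the length of the canonical transcript in GENCODE v44, the mean level over the 12 libraries was highest for RPL8, a protein beside the peptidyl transferase centre, at 3096 CPM per kilobase. RPL35, which sits at the exit of the peptide tunnel (2632 CPM per kilobase), and the stalk protein RPLP0 (2448 CPM per kilobase) were also near the top. RPL8 was again first when the exonic length of the deposited table was used, and RPL35 stayed among the 3 highest, while RPLP0 ranked 7. The order of other genes depended on the length used. RPL9 went from rank 5 to 22 and RPL13A from rank 9 to 2. RPL35 and RPLP0 did not differ beyond their spread in the 24 h control, where they stood at 2801 ± 206 and 2657 ± 96.3 CPM per kilobase (SD, n = 3).

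At the low end stood RPL10L at 0, RPL3L at 0.973 CPM per kilobase, and RPL36A at 1.68 CPM per kilobase. RPL3L is a copy of RPL3 known from heart and skeletal muscle. RPL36A is a core gene, but its low value is uncertain. In GENCODE v44, 43.8% of its canonical transcript lies within exons of another coding gene on the same strand, RPL36A-HNRNPH2, and reads that fall in more than one gene may not have been counted. The same holds for RPL17, with 96.9% of its canonical transcript within exons of RPL17-C18orf32, for RPL26, with 65.3% within those of AC135178.2, and for RPL22, with 11.2% within those of AL031847.2. These 4 genes had totals of 278, 3970, 7986, and 18488 counts for RPL36A, RPL17, RPL26, and RPL22, among the 8 lowest of the 52.

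Reads can also be split with the many processed pseudogenes of these genes. The table holds 733 pseudogene rows for 46 of the genes, with 84183 counts, or 0.822% of the genes' own counts. This stayed under 2% of the parent's count for 43 of the 52 genes. It was above 5% for RPL41 (23966 counts against 119765 of its own, nearly all in RPL41P1), RPL17 (7.86%), RPL22 (5.38%), and RPL23A (5.04%), and reached 4.93% for RPL9, nearly all in RPL9P9. Values of these genes are uncertain to that extent. The strand setting of the counting is not given, and 19 of the genes overlap a coding gene on the opposite strand. For RPL10, 50.7% of the canonical transcript lies within exons of DNASE1L1, which had 1372 counts against 262658 for RPL10.

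The first comparison asked how Arg changed these RNAs after 24 h. Of the 52 genes, 49 had a lower level with Arg (48 when scaled by library size alone), with a median log2 fold change of −0.15, where the median of all 14279 genes tested was 0.0030. With edgeR's quasi-likelihood test and an adjusted p under 0.05, 3 genes fell (RPL22L1, RPL37A, and RPL9) and 0 rose. Among all genes tested, 3.84% were called lower and 2.79% higher, so the number called was near the background. At an unadjusted p under 0.05, 21 of the 52 were lower and 0 higher, against 11.9% and 10.8% of all genes. In 14 genes every Arg library was below every control library, against 13.4% of all genes, and in 0 every Arg library was above, against 12.9%. DESeq2 called 5 lower and 0 higher, where it called 4.64% and 3.36% of all genes.

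The number of these calls changed with the library left out. Without control replicate B, whose large subunit share was the lowest of its group, 18 of the 52 genes were lower at an adjusted p under 0.05, where 6.02% of all genes were called lower in that fit. Without Arg replicate A the number was 10, against 4.36% of all genes. Without any one of control replicates A and C or Arg replicates B and C, the number was 0, against 1.59% to 1.95% of all genes. The median of the 52 stayed between −0.20 and −0.12 in these fits. At 24 h, mitochondrially encoded genes held up to 1.30% of the counts in the control libraries, each of which was above every Arg library (0.624% to 0.802%), and the part of this difference in the result was not tested.

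RPL22L1 encodes a relative of RPL22 that can take its place in the ribosome. Its level was 31.4, 24.7, and 33.7 CPM in control replicates A, B, and C and 23.1, 18.9, and 19.5 CPM in the Arg replicates at 24 h. All 3 Arg libraries were below all 3 control libraries. It fell by 0.55 on the log2 scale (SE 0.13, edgeR adjusted p = 0.0169). This level fell by 31.5%. The gene lies at chr3:170864875-170870483 on the minus strand, has no pseudogene row and no overlapping coding gene, and carries the TOP run shown above. Its relative RPL22 did not pass the test, with a log2 fold change of −0.0043 (SE 0.094) and group means of 81.0 and 80.8 CPM for control and Arg.

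RPL37A, a small zinc-binding protein of the large subunit, had 997, 831, and 951 CPM in the control libraries and 834, 657, and 682 CPM in the Arg libraries at 24 h. Arg replicate A was just above control replicate B, so the groups overlapped. RPL37A fell by 0.36 on the log2 scale (SE 0.095, edgeR adjusted p = 0.0310). It lies at chr2:216498189-216579180 on the plus strand, and its pseudogene rows had 0 counts.

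RPL9 encodes a protein near the site where translation factors bind. It had 1708, 1491, and 1881 CPM in the control libraries and 1465, 1158, and 1339 CPM in the Arg libraries, which did not overlap. It fell by 0.36 on the log2 scale (SE 0.096, edgeR adjusted p = 0.0311). The gene is at chr4:39452521-39458949 on the minus strand, and on the opposite strand it overlaps LIAS, though not within the canonical transcript.

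Only RPL26L1, RPL30, and RPL17 had a higher level with Arg at 24 h, and none of them passed the test. RPL26L1, a relative of RPL26, had 61.6, 63.4, and 69.2 CPM in the control libraries and 83.0, 67.5, and 71.0 CPM with Arg, where control replicate C was above Arg replicate B. Its log2 fold change was 0.19 (SE 0.096, edgeR adjusted p = 0.252). RPL30 had a log2 fold change of 0.099 (SE 0.084) and RPL17, a tunnel exit protein, of 0.087 (SE 0.12).

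At 48 h, the shift had the same size, and the groups were more clearly apart. Of the 52 genes, 46 had a lower level with Arg, with a median log2 fold change of −0.16, where the median of all 14562 genes tested was 0.0018. In 31 genes every Arg library was below every control library, where 8.52% of all genes were so placed, and in 1 gene every Arg library was above, against 8.55%. At an unadjusted p under 0.05, 31 were lower and 1 higher, against 7.49% and 5.94% of all genes. Few genes of any kind passed the adjusted test at this time, 0.117% lower and 0% higher. Of the 52, 1 fell (RPL37A) and 0 rose, while DESeq2 called 13 lower and 1 higher, against 1.17% and 0.386% of all genes. The edgeR count of lower genes also changed with the library left out. The count was 30 without control replicate B, where 8.17% of all genes were called lower in that fit. This library had the high mitochondrial share and also the lowest large subunit share of its group (4.70%, against 5.01% and 4.87%). Its counts over the table also lay furthest from its group. Chi-square per degree of freedom was 20.9 and 23.9 against replicates A and C, and 3.66 between those. At 24 h, control replicate B (12.3 and 12.5, against 6.54) and Arg replicate A (12.4 and 10.9, against 5.41) were likewise furthest from their groups. The part of these traits in the numbers called was not tested. Without any other single library at 48 h, 0 of the 52 were called lower, where 0.0336% to 0.0669% of all genes were.

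RPL37A had 924, 797, and 908 CPM in the 48 h control libraries and 637, 649, and 569 CPM with Arg, so all Arg libraries were lower. It fell by 0.51 on the log2 scale (SE 0.073, edgeR adjusted p = 0.0206), and its level fell by 29.5%. It is the one gene of the 52 that passed the adjusted test at both times. Over all alternatives at 48 h its log2 fold change lay between −0.57 and −0.45, while the call passed in 1 of the 6 fits with a library left out.

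The other genes at the low end did not pass the adjusted test. RPL41, a very short peptide between the subunits, had 623, 582, and 582 CPM in the control and 499, 453, and 416 CPM with Arg. These groups did not overlap, and the log2 fold change was −0.39 (SE 0.073, edgeR adjusted p = 0.0784). RPL36A had the lowest log2 fold change, −0.57, but with an SE of 0.46 on between 10 and 28 counts per library it was not distinguishable from no change. RPL22L1 had 20.1, 16.9, and 17.2 CPM in the control and 16.2, 15.6, and 11.3 CPM with Arg, a log2 fold change of −0.33 (SE 0.15, edgeR adjusted p = 0.362). RPL9 had a log2 fold change of −0.32 (SE 0.089, edgeR adjusted p = 0.177), again with no overlap between the groups.

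RPL17 went the other way. It had 13.7, 13.1, and 13.4 CPM in the 48 h control libraries and 19.2, 19.4, and 21.1 CPM with Arg, so every Arg library was higher. The log2 fold change was 0.57 (SE 0.11, edgeR adjusted p = 0.0905), and DESeq2 gave an adjusted p of 0.0115. Over all alternatives its edgeR or DESeq2 adjusted p lay between 0.00221 without control replicate B and 0.495 without control replicate A, with log2 fold changes of 0.53 to 0.62. These values come from 250 to 369 counts per library. Whether reads shared with RPL17-C18orf32 were counted is not given, and that row held 3 counts in all, so the level of RPL17 is uncertain. RPL17 lies at chr18:49488453-49492523 on the minus strand. The other highest log2 fold changes were those of RPL30 (0.13, SE 0.061) and RPL3L (0.050, SE 0.29).

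**Figure D2:**
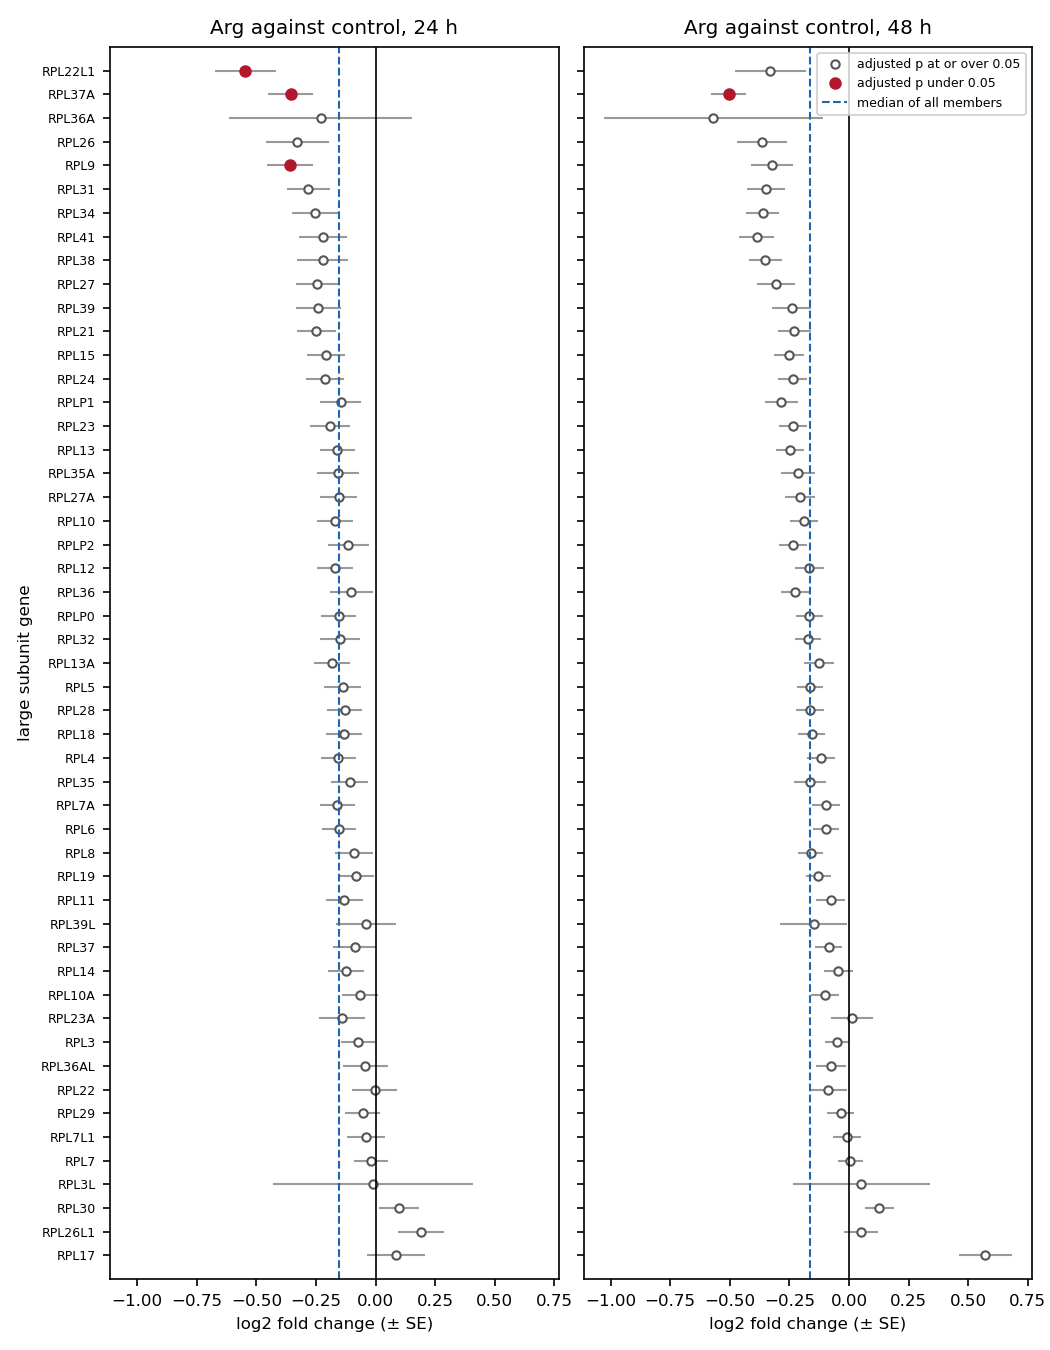
Log2 fold change of 51 of the 52 tested large subunit genes, Arg against control, at 24 h (left) and 48 h (right), with bars of ± 1 SE from the edgeR fit and filled points for an adjusted p under 0.05. Most points lie left of 0, around medians of −0.15 and −0.16 (dashed), with RPL17 far to the right at 48 h.

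The 2 Arg comparisons share no libraries. In 46 of the 52 genes the level was lower at both times. In 17 genes an unadjusted p under 0.05 was reached in the lower direction at both times, against 3.92% of all genes tested at both. In 11 genes the groups did not overlap at either time, against 2.79% of all genes. Among these were RPL9, RPL10, RPL12, RPL13, RPL18, RPL21, RPL22L1, RPL24, RPL28, and RPLP0. The genes above 0 at either time were RPL3L, RPL7, RPL17, RPL23A, RPL26L1, and RPL30. RPL7 was nearly level, with 2269, 2051, and 2145 CPM in the 24 h control and 2119, 2109, and 2163 CPM with Arg, and log2 fold changes of −0.018 (SE 0.072) at 24 h and 0.0057 (SE 0.052) at 48 h.

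**Figure D3:**
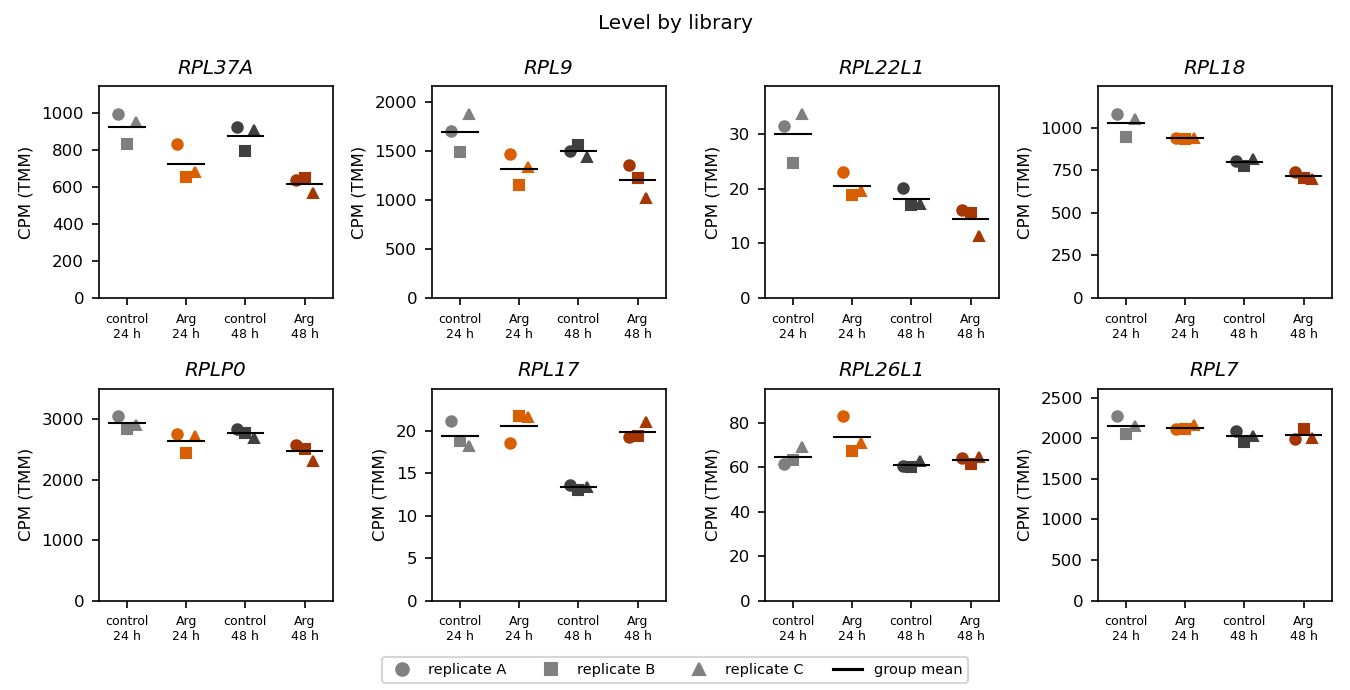
TMM-scaled CPM of 8 large subunit genes in each library by group, with a line at the group mean and axes from 0. RPL37A, RPL9, RPL22L1, RPL18, and RPLP0 have lower means with Arg at both times, RPL17 is low in the 48 h control only (13.1 to 13.7 CPM), and RPL26L1 and RPL7 overlap between Arg and control.

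By role, the genes are described by their values, and no list of a role was tested as a set. The P stalk, which calls in the factors that drive elongation, consists of RPLP0, RPLP1, and RPLP2, with RPL12 at its base. RPLP0 had 3052, 2843, and 2913 CPM in the 24 h control and 2752, 2442, and 2723 CPM with Arg, and then 2845, 2776, and 2693 CPM in the 48 h control and 2585, 2514, and 2316 CPM with Arg. The groups did not overlap at either time, with log2 fold changes of −0.16 (SE 0.075, edgeR adjusted p = 0.224) and −0.17 (SE 0.057, edgeR adjusted p = 0.237). RPLP1 had −0.15 (SE 0.085) at 24 h and −0.28 (SE 0.069, edgeR adjusted p = 0.148) at 48 h, and RPLP2 had −0.11 (SE 0.085) and −0.24 (SE 0.057, edgeR adjusted p = 0.148). The 4 stalk genes had medians of −0.15 and −0.20, and all 4 were below 0 at both times.

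RPL5 and RPL11 form a particle with the small 5S RNA, and outside the ribosome they bind MDM2, the regulator of p53. RPL5 had 1446, 1303, and 1414 CPM in the 24 h control and 1341, 1198, and 1245 CPM with Arg, with control replicate B below Arg replicate A. At 48 h it had 1234, 1192, and 1266 CPM in the control and 1120, 1124, and 1058 CPM with Arg, without overlap. The log2 fold changes were −0.14 (SE 0.076) and −0.16 (SE 0.055, edgeR adjusted p = 0.237). RPL11 overlapped between the groups at both times, with log2 fold changes of −0.13 (SE 0.077) and −0.078 (SE 0.061).

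The 4 genes around the peptidyl transferase centre (RPL3, RPL4, RPL8, and RPL10) were all below 0 at both times, with medians of −0.12 and −0.14. Of these, RPL3 was nearest to 0 at −0.073 (SE 0.071) and −0.050 (SE 0.052). The 10 genes along the peptide exit tunnel had medians of −0.15 at both times and ranged from −0.33 to 0.087 at 24 h and from −0.37 to 0.57 at 48 h, with RPL26 the lowest and RPL17 the highest. RPL9 and RPL23, near the factor-binding site, had medians of −0.28 at both times. RPL10A, the protein of the L1 stalk on the opposite side, had −0.067 (SE 0.075) and −0.10 (SE 0.059). The 24 remaining core genes had medians of −0.16 and −0.19, and 23 and 22 of them were below 0.

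Several of these genes have a close relative in the table. RPL36AL, at 195 CPM per kilobase, was the main measured form over RPL36A, and RPL26L1, at 91.2 CPM per kilobase, stood above RPL26 at 69.5 CPM per kilobase. In both comparisons, the parent lies partly within exons of another coding gene, so some of its reads may not have been counted. The same holds for RPL22. RPL39L (19.7 against 637 CPM per kilobase for RPL39), RPL7L1 (55.3 against 1692 for RPL7), RPL22L1 (10.9 against 41.2 for RPL22), and RPL3L (0.973 against 1341 CPM per kilobase for RPL3) all stood below their parents.

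With Arg, RPL26 had 44.8, 37.0, and 52.0 CPM in the 24 h control and 42.8, 33.1, and 30.7 CPM in the Arg libraries, which overlapped. At 48 h it had 41.5, 33.1, and 38.0 CPM in the control and 30.6, 26.6, and 30.3 CPM with Arg, without overlap. Its log2 fold changes were −0.33 (SE 0.13) and −0.37 (SE 0.11, edgeR adjusted p = 0.196), while those of RPL26L1 were 0.19 and 0.050 (SE 0.070). RPL36AL had −0.043 (SE 0.093) and −0.075 (SE 0.064), RPL39L −0.041 (SE 0.13) and −0.15 (SE 0.14), and RPL7L1 −0.039 (SE 0.081) and −0.0084 (SE 0.058). RPL3L, at 14 to 60 counts per library, had −0.011 (SE 0.42) at 24 h. The 6 tested copies had medians of −0.040 and −0.042 and the 7 parents, which include RPL10, the parent of the untested RPL10L, had −0.17 and −0.19. A difference between copies and parents was not tested.

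Among the 29 genes with the TOP run at an annotated start, the median log2 fold change was −0.16 at 24 h and −0.23 at 48 h, and all 29 were below 0 at both times. The range was −0.55 to −0.0043 at 24 h and −0.57 to −0.036 at 48 h. The value nearest 0 at 24 h was that of RPL22 (SE 0.094). The lowest at 48 h was that of RPL36A (SE 0.46), on few counts. Neither passed the adjusted test. The 13 tested genes with another annotated start had medians of −0.080 and −0.10, with 11 below 0 at each time. RPL17 and RPL26L1 are among these 13, and so is RPL9, which fell at 24 h. This split rests on the exact annotated base. RPL3 had a run of 4 bases from its start, below the cut. RPL4, RPL9, RPL10A, RPL17, RPL19, and RPL36AL had pyrimidine runs at or near an annotated start. The 13 are therefore not a list of genes without the TOP motif. The difference between the groups of genes was not tested.

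Other lists were set beside these genes. The 32 small subunit genes had a median of −0.22 at both times, with 31 and 30 below 0. At an adjusted p under 0.05, 2 and 4 were lower, against 3.84% of all genes at 24 h and 0.117% at 48 h. The 49 mitochondrial large subunit genes, which build a separate ribosome, had medians of −0.082 and −0.059. Of 22 tested other genes known for TOP mRNAs, mainly elongation and initiation factors, 14 and 15 were below 0, with medians of −0.034 and −0.050. NAP1L1, a histone chaperone, was the 1 gene of that list to pass the adjusted test at 24 h (log2 fold change −0.40). At 48 h, 0 passed by edgeR, and 3 were lower at an unadjusted p under 0.05, against 7.49% of all genes.

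The 35 tested assembly factors of the large subunit had medians of 0.011 and 0.048, with 16 below 0 at 24 h and 13 at 48 h. None passed the adjusted test at either time by edgeR. At an unadjusted p under 0.05, 2 were higher and 2 lower at 24 h, against 10.8% and 11.9% of all genes. At 48 h, 5 were higher and 2 lower, against 5.94% and 7.49%. The list for TOP mRNA control held 15 genes, such as LARP1 and MTOR, and among them the transcription factor MYC. The medians were 0.067 and 0.044, and 0 passed the adjusted test by edgeR at either time. At an unadjusted p under 0.05, 3 were higher at each time, against 10.8% of all genes at 24 h and 5.94% at 48 h. At 24 h, 0 of the 15 were lower by that measure. At 48 h, 1 was lower, against 7.49% of all genes, and this was MYC, with a log2 fold change of −0.24 (SE 0.077, edgeR adjusted p = 0.228).

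**Figure D4:**
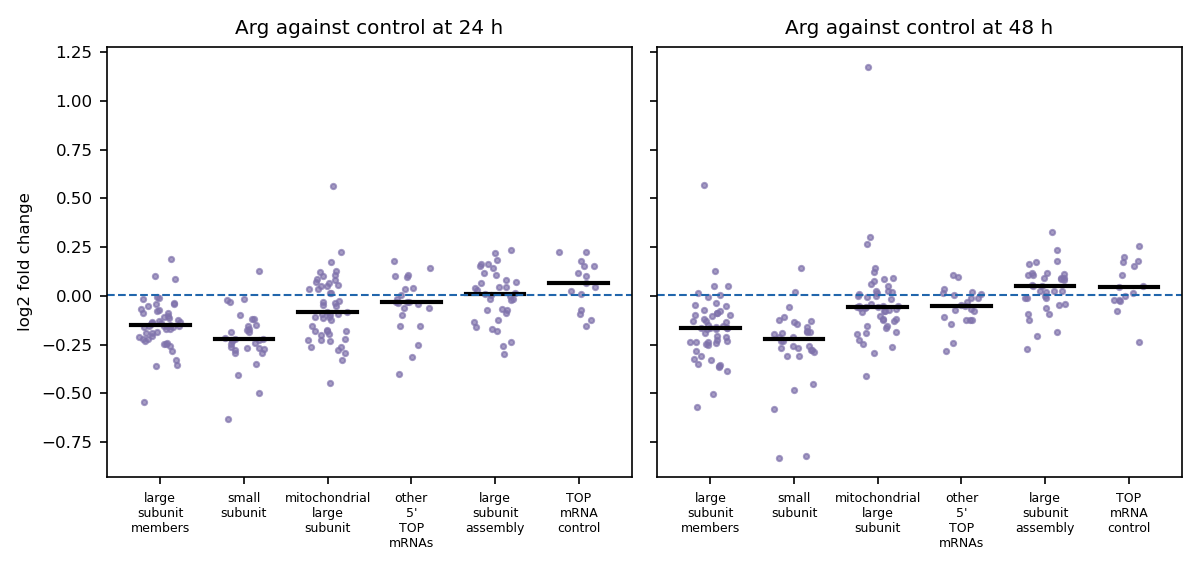
Log2 fold change of each tested gene, Arg against control, at 24 h (left) and 48 h (right), for 6 gene lists, with a bar at the list's median and a dashed line at the median of all genes tested. The large and small subunit lists lie mostly below the line (medians −0.15 and −0.22 at 24 h), and the assembly factors lie around it (0.011).

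The second question was how the genes changed between 24 and 48 h. In control cells, 47 of 52 had a lower level at 48 h, with a median log2 fold change of −0.11, against 0.012 for all genes. With scaling by library size alone, 38 were lower, with a median of −0.052 against 0.072 for all genes, and without 24 h control replicate B the median was −0.18. At an adjusted p under 0.05, 4 genes fell (RPL22L1, RPL18, RPL17, and RPL14), where 10% of all genes were lower, so the share was near the background. By edgeR 0 rose, where 9.9% of all genes did, with 0 by DESeq2, which called 9.73% of all genes higher. At an unadjusted p under 0.05, 12 were lower and 0 higher, against 17% and 17.1% of all genes. The number lower at an adjusted p under 0.05 was 18 without 24 h control replicate B, against 11.6% of all genes, and 2 without 24 h control replicate A, against 2.74%.

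In Arg-treated cells, 47 of 52 were also lower at 48 h, with a median of −0.13. With scaling by library size alone, 42 were lower, with a median of −0.071 against 0.058 for all genes. At an adjusted p under 0.05, 17 fell, where 14% of all genes were lower, and 0 rose, where 14.3% of all genes did. At an unadjusted p under 0.05, 25 were lower, against 19.2% of all genes, and 2 (RPL11 and RPL3L) were higher, against 19.3%. DESeq2 called 1 gene higher, RPL11, where it called 13.7% of all genes. The number lower at an adjusted p under 0.05 was 10 without 24 h Arg replicate A, against 12.9% of all genes. It was 5 without 48 h Arg replicate B or C, against 9.31% and 10.4%, and 6 with scaling by library size alone, against 10.1%. The summed fibroblast markers, 3 of 6 of which reached 1 CPM, lay between 29.6 and 53.4 CPM in the 24 h libraries and between 71.8 and 102 CPM in the 48 h libraries, with none at 0 throughout. Their part in the changes over time was not tested. A fall over time was also seen in other lists. In control cells, the medians of the small subunit, mitochondrial large subunit, assembly factor, and other TOP lists were −0.13, −0.25, −0.24, and −0.15. In Arg-treated cells, they were −0.17, −0.20, −0.23, and −0.17.

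RPL18 had the smallest p of the 52 genes in Arg-treated cells and RPL22L1 in control cells. The level of RPL18 was 1081, 942, and 1052 CPM in the 24 h control and 804, 772, and 813 CPM in the 48 h control. In Arg-treated cells it was 939, 932, and 939 CPM at 24 h and 741, 705, and 701 CPM at 48 h. In both, all 48 h libraries were below all 24 h libraries. RPL18 fell by 0.36 on the log2 scale in control cells (SE 0.071, edgeR adjusted p = 0.0063) and by 0.39 in Arg-treated cells (SE 0.059, edgeR adjusted p = 7.25e-05). These calls held without any single library.

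RPL22L1, whose level by library is given above, fell by 0.72 on the log2 scale in control cells (SE 0.14, edgeR adjusted p = 0.00511) and by 0.51 in Arg-treated cells (SE 0.14, edgeR adjusted p = 0.0095), where the call was lost without 48 h Arg replicate C. RPL22 did not pass the test in either, with log2 fold changes of 0.18 (SE 0.086) and 0.094 (SE 0.086). RPL17 fell by 0.53 in control cells (SE 0.12, edgeR adjusted p = 0.0119), and its call was lost without 24 h control replicate A. In Arg-treated cells RPL17 had 18.6, 21.7, and 21.6 CPM at 24 h against 19.2, 19.4, and 21.1 CPM at 48 h. RPL14 fell by 0.27 on the log2 scale in control cells (SE 0.066, edgeR adjusted p = 0.015), but not without 24 h control replicate A or C.

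In Arg-treated cells, RPL24, which reaches across to the small subunit, had 916, 856, and 889 CPM at 24 h and 747, 758, and 730 CPM at 48 h. It fell by 0.25 on the log2 scale (SE 0.060, edgeR adjusted p = 0.00375). RPLP1 had 1185, 1188, and 1276 CPM at 24 h and 1103, 939, and 971 CPM at 48 h. It fell by 0.27 on the log2 scale (SE 0.068, edgeR adjusted p = 0.00508), a call that was lost without 48 h Arg replicate B.

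**Figure D5:**
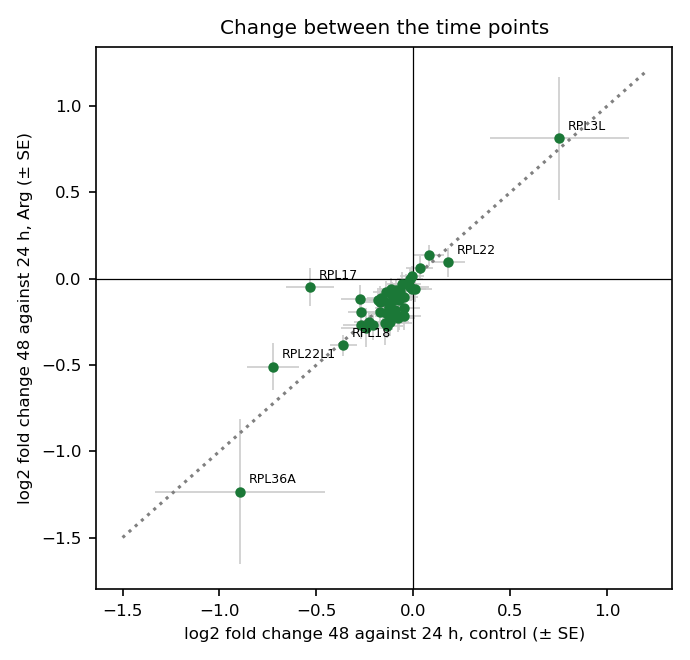
Log2 fold change from 24 to 48 h of each of the 52 genes in control cells (horizontal) and in Arg-treated cells (vertical), with bars of ± 1 SE and a dotted line where both are equal. RPL18 and RPL22L1 are low on both axes, RPL17 is low in control cells only (−0.53), and RPL36A and RPL3L have wide bars on few counts.

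The last comparison asked whether the change with Arg differed between 24 and 48 h. In the model of all 12 libraries, 0 of the 52 genes passed the adjusted test of this interaction in either direction by edgeR, and DESeq2 also called 0. Among all genes, 0.0132% were called higher and 0% lower. At an unadjusted p under 0.05, 1 gene was higher and 0 lower, against 3.06% and 3.8% of all genes. That gene was RPL17, with an interaction of 0.49 on the log2 scale (SE 0.16, edgeR adjusted p = 0.573). The next by p were RPLP1 at −0.14 (SE 0.11) and RPL41 at −0.16 (SE 0.14). The median interaction over the 52 was −0.023. It was above 0 without 24 h control replicate B (0.045) and without 24 h Arg replicate A (0.0077).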

How the data were processed

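The authors filtered reads with fastp, mapped them to GRCh38/hg38 with STAR, and deposited raw counts per gene from featureCounts. Tool versions, annotation release, and strand setting are not given in the sources used here. All columns of counts were used. Groups came from the labels.

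Counts were tested with edgeR 4.0.16 (R 4.3.3) by its quasi-likelihood test, after filterByExpr and TMM scaling, in separate fits of 2 groups. Adjusted p-values (Benjamini–Hochberg) cover every gene tested. The interaction was fitted over all 12 libraries. The SE is the absolute log2 fold change divided by the square root of F. CPM values are TMM-scaled. An exact permutation test of 3 against 3 libraries cannot give a p below 0.1, so none was used. The scripts were tested on simulated data.

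Alternatives were DESeq2 1.42.0, its size factors, library size alone, TMM without ribosomal protein genes, no filter, at least 10 counts in every library, 1 model of 12 libraries, the replicate letter as a block, a lowess correction for exonic length (span 0.3, prior count 2) with and without the block, pseudogene counts added to the parent, and leaving out each library. Starts came from RefSeq and transcript lengths and exon overlap from GENCODE v44. Every deposited gene start lay within 1 kb of that in GENCODE v44.

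The genes and lists were chosen with earlier results of these data known. Values are given for genes called in an Arg comparison and its 3 highest and 3 lowest log2 fold changes, the 3 smallest p in the time comparisons and the interaction, all related copies, the stalk genes, RPL5, RPL11, and the 3 most and least abundant genes. RPL7, RPL14, RPL22, RPL26, RPL3, RPL10A, NAP1L1 and MYC were named after their values were seen. The values of 1 gene that this rule takes in are not reported here, though it is counted among the genes tested.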

Additional observations from a re-analysis of the deposited data

How the results depend on the processing

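The median log2 fold change kept its sign under every alternative for both Arg comparisons and both time comparisons. It lay between −0.20 and −0.12 at 24 h and between −0.19 and −0.14 at 48 h, and the length correction gave −0.13 and −0.14. That correction used the deposited exonic length, with a median of 3109 bases over these genes, against 970 for the canonical transcript. A bias by transcript length was therefore not tested. The counts of called genes were less stable. Each percentage in parentheses below is the share of all genes tested that the same fit called in that direction. With Arg at 24 h, 3 were lower (3.84%), against 5 with DESeq2 (4.64%) and 8 without the filter (2.86%). Leaving out a library gave 0 to 18 (1.59% to 6.02%). With Arg at 48 h, 1 was lower (0.117%), against 13 with DESeq2 (1.17%) and 17 without the filter (1.37%). There were 7 with the replicate block (0.968%) and 6 with the length correction and replicate block (0.632%). Leaving out a library gave 0 to 30 (0.0336% to 8.17%). RPL17 was the 1 gene called higher at 48 h with DESeq2 (0.386%), without the filter (0.73%), and in the single model of all 12 libraries (0.0264%). The same held for the replicate block alone (0.295%) or with the length correction (0.13%), and without control replicate B (7.76%). Over the left-out libraries, 0 to 1 were higher (0% to 7.76%). Between 24 and 48 h in control cells, 4 were lower (10%), against 9 with DESeq2 (11.1%) and 8 without the filter (6.44%). There were 8 in the single model (12.4%), 13 with the replicate block (14.4%), and 15 with the length correction and replicate block (17.1%). Leaving out a library gave 2 to 18 (2.74% to 11.6%). In Arg-treated cells, 17 were lower (14%), against 6 with library size alone (10.1%) and 11 in the single model (11.5%). Leaving out a library gave 5 to 20 (9.31% to 12.9%). RPL11 was the 1 gene called higher there with DESeq2 (13.7%), library size alone (17.8%), and the length correction (11%). The median interaction ran from −0.054 to 0.045 over the left-out libraries and was above 0 in 2 of those fits (0.045 and 0.0077). The cause of these changes was not tested. Fits with a library left out had fewer samples, and they called more genes in some cases and fewer in others.

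Little sign of pairing by replicate letter was found, though pairing is not excluded. The correlations of deviations between libraries with the same letter lay between −0.061 and 0.135, so the block is given here only. Over the 25 calls of single genes, 333 fits kept the call and 92 lost it, and none reversed its direction. RPL22L1, RPL37A, and RPL9 at 24 h and RPL37A at 48 h passed in all 11 settings that kept every library. At 24 h each of these passed in 2 of 6 fits with a library left out, and RPL37A at 48 h in 1 of 6. With few counts in RPL36A and RPL3L, changes of the size seen in the other genes were not detectable.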
